A study of Homo sapiens with 4 samples.

Results

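The genes described here are the 13 mRNAs encoded by mitochondrial DNA and 27 nuclear genes that transcribe, replicate, process and stabilise mitochondrial nucleic acids, 40 of the 58560 genes with a transcript in the files. They were given as a list of gene names, and their counts were summed from transcripts by Ensembl gene ID. RNA came from A549, a human lung adenocarcinoma cell line with features of alveolar epithelium. The libraries were 2 of cells kept in glutamine-free DMEM with serum and 2 of cells left untreated. Deprived replicate 1 is labelled as deprived for 24 hours and deprived replicate 2 for 25 hours, while the treatment protocol gives 24 hours. Only the deprived cells are described as washed with PBS and moved to new medium, so the loss of glutamine and the change of medium cannot be told apart. All cells came from the same line with no genetic change named, and nothing says whether replicates were separate cultures, so p-values measure only the spread between these libraries.

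Library totals were 123414592 and 120425759 counts in deprived cells and 101496318 and 101982373 counts in control cells. The epithelial keratin gene KRT8 had 886 and 714 CPM in deprived cells and 5154 and 5235 CPM in control cells, and KRT18 had 1088 and 978 CPM in deprived cells and 2235 and 2279 CPM in control cells. All 5 epithelial markers had lower values in deprived cells, and the part of this in the results below was not tested. In contrast, SFTPC, SFTPB, SFTPA1 and SFTPA2, surfactant genes of alveolar type II cells, were under 1 CPM in every library. Of the other alveolar type II markers, ABCA3 had 27.7 and 28.6 CPM in deprived cells and 41.2 and 41.3 CPM in control cells, and NAPSA had 0.737 and 0.756 CPM in deprived cells and 2.77 and 1.47 CPM in control cells. Fibroblast and endothelial markers were at most 1.53 CPM in any library. The blood markers HBB and HBA1 were at 0.0479 to 0.227 CPM in both deprived libraries and control replicate 2, but at 11.6 and 7.61 CPM in control replicate 1, whose part in the results below was not tested. Values without that library are given beside each of the 40 genes whose call changes without it.

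Human mitochondrial DNA is a small circle transcribed from both strands into long precursor RNAs. The polymerase POLRMT starts with the help of TFAM, which also packages the DNA, and TFB2M, which opens the promoter. The precursors are cut at the transfer RNAs that lie between the mRNAs, and the mRNAs are then given poly(A) tails by MTPAP and held by the LRPPRC and SLIRP complex. Each reading frame is counted here as an mRNA of its own, also where frames overlap on the same strand. Of the mRNAs so counted, 12 are read from the heavy strand and only MT-ND6 from the light strand. Several open reading frames stop in an incomplete codon that the tail completes. The last 24 bases of 4 mRNAs are shown because MT-ND6 and MT-ND5 had the largest changes below and MT-CO1 and MT-CO3 the most counts, in the GENCODE release 29 transcripts of GRCh38. Capitals mark the end of the reading frame, a complete stop codon or the lone T that the tail extends.
MT-ND6, chrM:14149-14172, minus strand: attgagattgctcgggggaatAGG
MT-ND5, chrM:14125-14148, plus strand: ctaaccctactcctaatcacaTAA
MT-CO1, chrM:7422-7445, plus strand: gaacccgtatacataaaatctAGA
MT-CO3, chrM:9967-9990, plus strand: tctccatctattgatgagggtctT
The MT-ND5 and MT-ND6 frames end at adjoining bases on opposite strands.

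The 13 mitochondrial mRNAs were lower in deprived cells than in control cells. All 13 passed the test as lower and 0 as higher, and at an unadjusted p under 0.05 also 0 were higher. Each gene was tested by quasi-likelihood in edgeR, and p-values were adjusted by Benjamini-Hochberg over 24527 genes, with a threshold of 0.05. Of all genes tested, 24.4% were called lower by the same rule and 25.2% higher. In all 13, both deprived libraries lay below both control libraries in counts scaled to library depth (CPM), as did 40.5% of all genes tested. The median log2 fold change of the 13 was -1.01, beside -0.06 over all genes tested, and the range was -2.44 to -0.68. With no filter on low counts 11 of the 13 were called, beside 12.7% of all genes called lower, and without control replicate 1 the count was 10, beside 17.1%. All 40 genes passed the filter on low counts that was used. In bulk RNA, less RNA per cell and fewer cells that express a gene cannot be told apart.

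**Figure D1:**
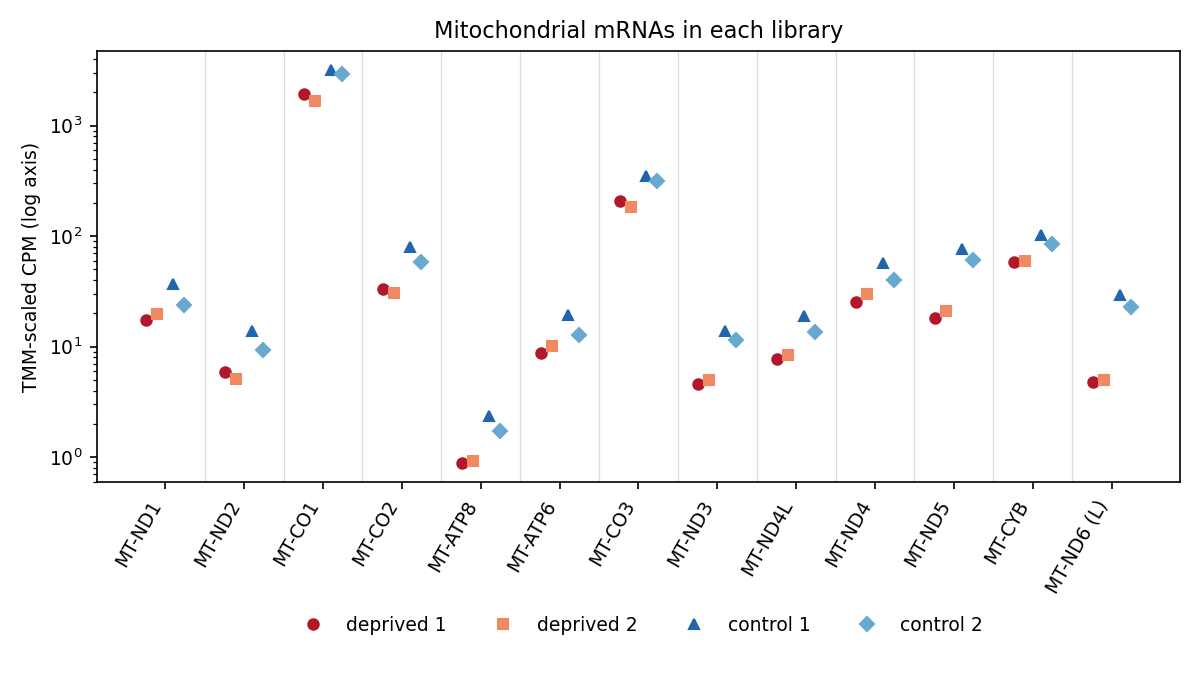
TMM-scaled CPM of the 13 mitochondrial mRNAs on a log axis, with 1 point per library, the heavy-strand genes in genome order from left to right, and the light-strand gene, marked (L), last. In every gene the deprived points lie below the control points, with the widest gaps at MT-ND5 and MT-ND6.

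Taken as a share of all deposited counts, the 13 mRNAs held 0.195% and 0.184% in deprived cells, against 0.446% and 0.390% in control cells. Such a share scales each library by its size alone, without the TMM factors, and depends on what else the library holds. For MT-CO1 the log2 fold change was -1.12 with library size as the only scaling and -0.77 with TMM factors. The share was 0.189% ± 0.00812 in deprived and 0.418% ± 0.0393 in control cells (SD, n = 2 each), a log2 ratio of -1.14. The exact two-sided permutation test gave p = 0.33, the smallest that 2 libraries against 2 allow. MT-CO1, the catalytic subunit of cytochrome c oxidase, made up most of these counts. It took 83.0% and 81.4% of the mitochondrial mRNA counts in deprived cells and 79.9% and 81.8% in control cells. Without MT-CO1, the remaining 12 mRNAs held 0.0332% and 0.0341% of counts in deprived cells and 0.0897% and 0.0709% in control cells. MT-CO3 came next with 8.98% and 8.99% of the mitochondrial mRNA counts in deprived and 8.77% and 8.75% in control cells. The order by level per transcript length (TPM over full lengths) was likewise led by MT-CO1, with 1856 ± 5.80 TPM in deprived and 4037 ± 544 TPM in control cells. MT-CO3 followed at 399 ± 6.85 TPM in deprived and 861 ± 132 TPM in control cells, and MT-ATP8 was at 7.06 ± 0.900 and 20.1 ± 6.04 TPM (SD, n = 2 each). MT-ATP6, which adjoins MT-CO3, was at 22.4 ± 4.66 TPM in deprived and 48.9 ± 18.2 TPM in control cells. These levels rest on estimated counts, and nuclear copies can share reads with the mRNAs. How such reads were assigned is not known, so the order need not be that of the RNA levels.

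Complex I, the NADH dehydrogenase at the entry of the respiratory chain, takes its mitochondrially encoded subunits from 7 of the mRNAs. MT-ND6, a membrane subunit, had 4.75 and 4.95 CPM in deprived cells, against 29.6 and 23.0 CPM in control cells. Its log2 fold change was -2.44 ± 0.15 (SE; edgeR adjusted p = 7.03e-05), the largest of the 13. MT-ND5, a proton-pumping subunit, had 18.4 and 20.9 CPM in deprived cells, against 75.9 and 60.8 CPM in control cells. It fell by 1.80 on the log2 scale (SE 0.13; edgeR adjusted p = 0.000119), and the gap between the groups exceeded the range within either. MT-ND3, which lies in the membrane arm near the quinone site, had 4.56 and 4.95 CPM in deprived cells, against 13.9 and 11.6 CPM in control cells (log2 fold change -1.42 ± 0.15, edgeR adjusted p = 0.000549). These 3 had the smallest p-values of the 13 mRNAs.

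The other complex I mRNAs had smaller changes and a wider spread between the control libraries. MT-ND2 had 5.96 and 5.12 CPM in deprived cells, against 13.8 and 9.25 CPM in control cells. MT-ND4L had 7.70 and 8.50 CPM in deprived cells, against 18.9 and 13.6 CPM in control cells. For both, the higher control value was that of replicate 1. MT-ND4, a further proton-pumping subunit, had 25.5 and 30.3 CPM in deprived cells, against 57.4 and 40.2 CPM in control cells. MT-ND1, which helps form the quinone pocket, had 17.6 and 19.8 CPM in deprived cells, against 37.0 and 23.6 CPM in control cells. The log2 fold changes were -1.05 ± 0.22 for MT-ND2, -1.01 ± 0.18 for MT-ND4L, -0.81 ± 0.18 for MT-ND4 and -0.70 ± 0.21 for MT-ND1. MT-ND1 had the largest edgeR adjusted p of the 13 (0.0351). Without control replicate 1 its log2 fold change was -0.35 (edgeR adjusted p = 0.106), and without deprived replicate 1 it was -0.61 (edgeR adjusted p = 0.0927).

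MT-CYB encodes cytochrome b, the core of complex III. It had 58.0 and 59.0 CPM in deprived cells, against 102 and 84.7 CPM in control cells, the smallest change of the 13 (log2 fold change -0.68 ± 0.10, edgeR adjusted p = 0.00242). The complex IV mRNAs encode core subunits of cytochrome c oxidase. MT-CO1 had 1914 and 1660 CPM in deprived cells, against 3161 and 2954 CPM in control cells (-0.77 ± 0.12). MT-CO3 had 207 and 183 CPM in deprived cells, against 347 and 316 CPM in control cells (-0.76 ± 0.09). Both changed by nearly the same amount. MT-CO2, which receives electrons from cytochrome c, had 33.5 and 30.7 CPM in deprived cells, against 79.2 and 58.7 CPM in control cells (-1.10 ± 0.15).

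The ATP synthase mRNAs MT-ATP8 and MT-ATP6, which encode membrane subunits of the enzyme, overlap in their reading frames. MT-ATP8 had 0.890 and 0.922 CPM in deprived cells, against 2.34 and 1.72 CPM in control cells, a log2 fold change of -1.16 ± 0.27. MT-ATP6 had 8.72 and 10.1 CPM in deprived cells, against 19.5 and 12.9 CPM in control cells, a log2 fold change of -0.78 ± 0.21. The edgeR adjusted p was 0.0135 for MT-ATP8 and 0.0249 for MT-ATP6, and without control replicate 1 both calls were lost. MT-ATP8 was then at -0.93 (edgeR adjusted p = 0.0914) and MT-ATP6 at -0.46 (edgeR adjusted p = 0.0948). Without deprived replicate 1, MT-ATP6 was at -0.67 (edgeR adjusted p = 0.0733). The frames share 46 bases, so reads of the stretch below fit both genes, and the division of counts between them is an estimate. Capitals mark the start codon of MT-ATP6 and the stop codon of MT-ATP8.
MT-ATP8 and MT-ATP6 overlap, chrM:8527-8572, plus strand: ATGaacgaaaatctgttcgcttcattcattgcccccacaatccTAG
The 46 shared bases are 22.2% of MT-ATP8 and 6.75% of MT-ATP6. MT-ND4L and MT-ND4 share 7 bases. The frames of each pair were counted as separate mRNAs, and their fold changes need not be those of separate RNA molecules.

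MT-ND6 fell further than the heavy-strand mRNAs. For every 1000 counts of the 12 heavy-strand mRNAs, MT-ND6 had 2.06 and 2.43 counts in deprived cells, against 7.53 and 6.41 counts in control cells. Fitted with the heavy-strand sum as the library size, MT-ND6 had a log2 fold change of -1.63 ± 0.18 (edgeR adjusted p = 1.88e-05). That p was adjusted over all genes tested, each scaled by the heavy-strand sum in the same fit. It therefore cannot be set beside the other adjusted p-values. Because MT-CO1 dominates that sum, the ratio was also taken without it, a choice made after the values were seen. It was then 12.2 and 13.2 counts per 1000 in deprived cells, against 38.6 and 36.3 counts in control cells, and the log2 fold change was -1.55 ± 0.24. MT-ND5, its neighbour on the heavy strand, also took a smaller share of the mitochondrial mRNA counts, 0.796% and 1.03% in deprived cells against 1.92% and 1.69% in control cells. The strand setting of the counting is not given in the sources used here, and the untranslated end of MT-ND5 mRNA is known to run antisense to MT-ND6. Without strand, reads from there and from MT-ND6 cannot be told apart.

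**Figure D2:**
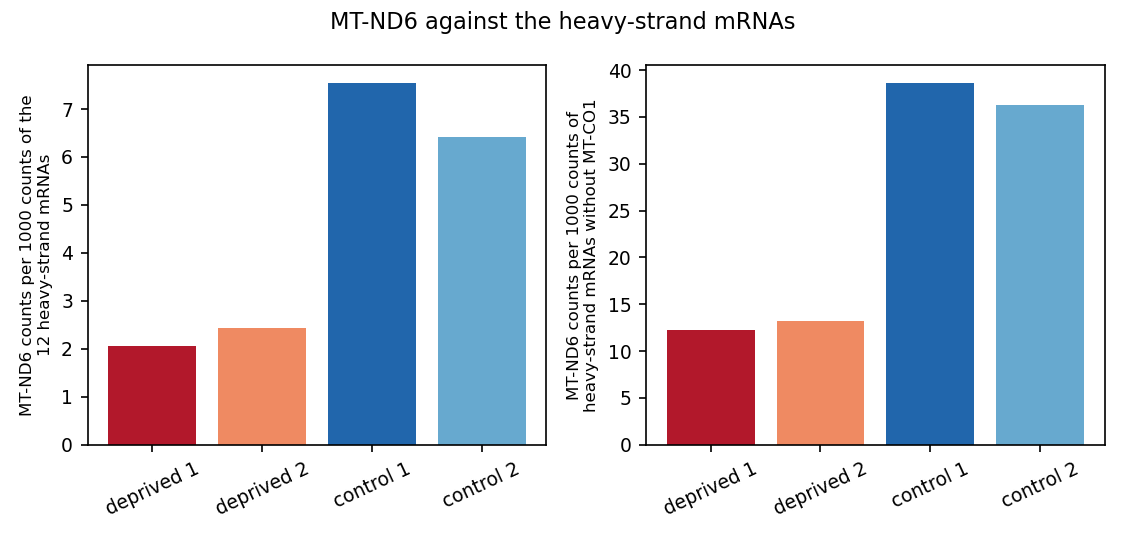
MT-ND6 counts per 1000 counts of the heavy-strand mRNAs in each library, with all 12 heavy-strand mRNAs on the left and without MT-CO1 on the right. Both deprived bars are below both control bars in each panel, at 2.06 and 2.43 against 7.53 and 6.41 on the left.

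The change was neither steadily larger nor steadily smaller along the heavy strand. From MT-ND1 at the promoter-near end, log2 fold changes were -0.70 for MT-ND1, -0.77 for MT-CO1, -0.76 for MT-CO3, -1.80 for MT-ND5 and -0.68 for MT-CYB. MT-CYB is the mRNA farthest from the promoter. The 6 mRNAs whose frame needs the tail for its stop codon had a median of -0.79, with a range from -1.42 (MT-ND3) to -0.68 (MT-CYB). The 7 with a complete stop codon had a median of -1.10, with a range from -2.44 (MT-ND6) to -0.77 (MT-CO1). These medians are descriptions over few genes, and the ranges overlap.

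The mitochondrial transfer RNAs mark the cuts between the mRNAs, and their counts in libraries of poly(A)-selected RNA are low. Of the 22 genes, 20 had enough counts to be tested, 13 were called lower and 0 higher, beside 24.4% and 25.2% of all genes tested, with a median log2 fold change of -1.62. The tested tRNAs summed with the 2 others to 6.69 and 6.64 CPM in deprived cells, against 18.0 and 16.3 CPM in control cells. On the heavy strand 8 of 12 tested were called lower, and on the light strand 5 of 8, against the same 24.4%. MT-TT, the threonine tRNA downstream of MT-CYB, had 0.373 and 0.387 CPM in deprived cells, against 1.86 and 1.70 CPM in control cells (log2 fold change -2.22 ± 0.27, edgeR adjusted p = 0.000938). MT-TH, MT-TS2 and MT-TL2, the row of tRNAs just before MT-ND5, had log2 fold changes of -2.45 ± 0.41, -2.29 ± 0.34 and -2.19 ± 0.29. MT-TL1, the leucine tRNA after the ribosomal RNAs, was not called at -0.20 ± 0.32. These 5 tRNAs were picked after their values were seen.

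**Figure D3:**
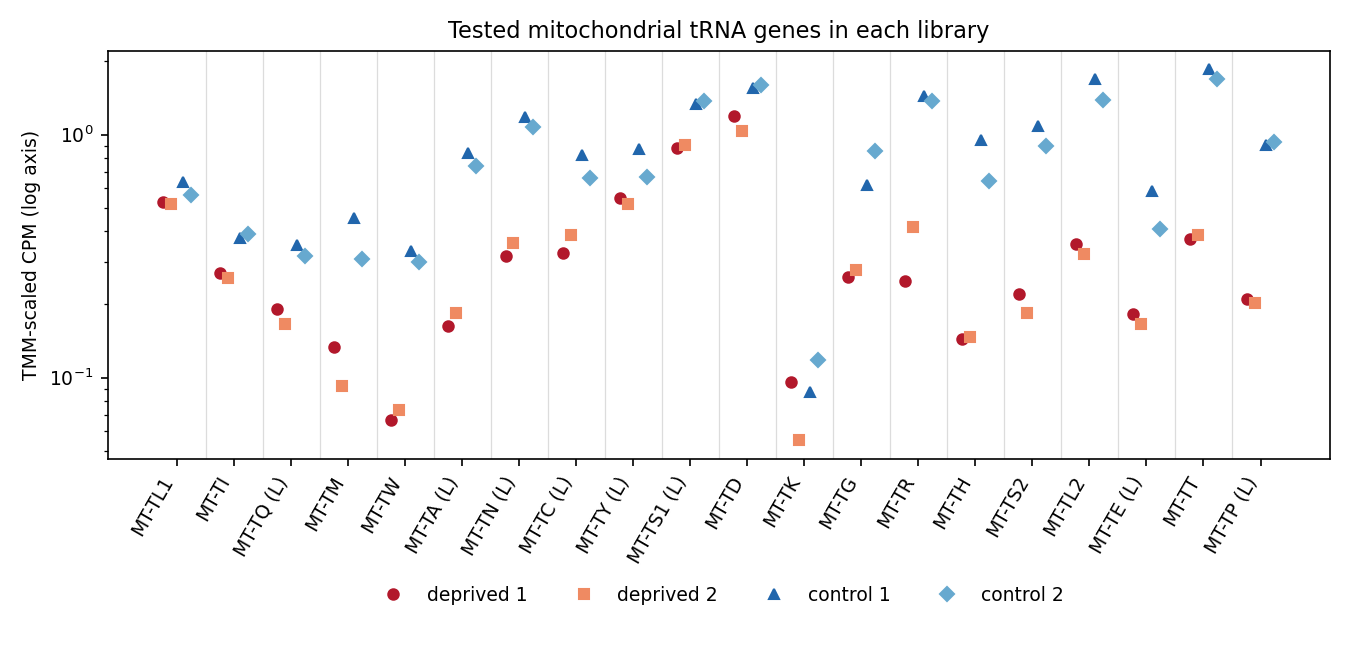
TMM-scaled CPM of the 20 tested mitochondrial tRNA genes on a log axis, in genome order, with light-strand tRNAs marked (L). Deprived points lie below control points for all genes shown except MT-TK, whose groups overlap. Over all genes tested, both deprived libraries lay below both control libraries in 40.5%.

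The ribosomal RNAs of the same precursor had few counts. MT-RNR1 and MT-RNR2 together had 39 counts in each deprived library, against 247 counts in control replicate 1 and 39 in control replicate 2. MT-RNR2 was not called (log2 fold change -1.78 ± 0.74, edgeR adjusted p = 0.0960), and its high control value came from 1 library. Nuclear copies of mitochondrial genes can share reads with the mRNAs. Of 417 such genes, 4 had at least 100 counts in a library. MTCO1P12 (chromosome 1, 631074 to 632616), which is 98.6% identical to MT-CO1, had 159 and 108 CPM in deprived cells, against 241 and 239 CPM in control cells. That was 8.29 and 6.50 counts per 100 counts of MT-CO1 in deprived cells and 7.63 and 8.10 in control cells. MTND2P28 and MTATP6P1, 98.2% and 98.5% identical to MT-ND2 and MT-ATP6, also had log2 fold changes below 0, of -0.81 ± 0.22 and -1.06 ± 0.30. MTRNR2L4, a humanin-like gene, was higher at 1.21 and 1.39 CPM in deprived cells, against 0.158 and 0.118 CPM in control cells.

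The 27 nuclear genes moved in both directions. Of them, 14 were called higher and 4 lower, and 9 were not called, beside 25.2% higher and 24.4% lower over all genes tested. Their median log2 fold change was 0.28, and the range was -1.78 to 1.33. Both deprived libraries lay above both control libraries in 15 of the 27, and below them in 5, beside 36.1% and 40.5% of all genes tested. With library size as the only scaling, which moves the median of all genes to -0.40, 11 were higher and 10 lower and the median of the 27 was -0.053, while 17% of all genes were called higher and 34.9% lower. With the replicate number as a block, 13 were higher and 4 lower, beside 22.5% and 20.7% of all genes.

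**Figure D4:**
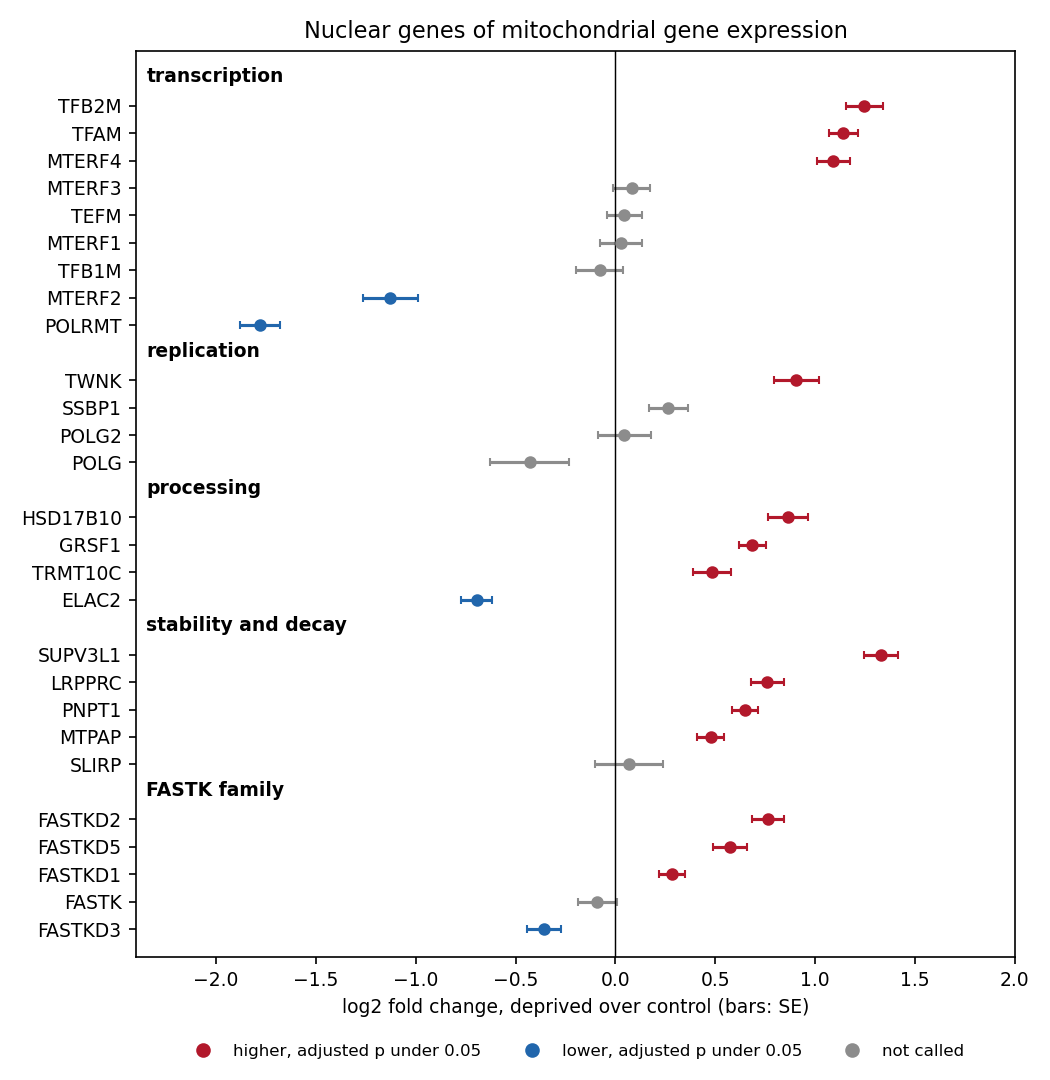
Change in deprived over control cells (log2 fold) of the 27 nuclear genes, grouped by role, with bars for the SE. Red points were called higher and blue points lower, and grey points were not called. POLRMT and MTERF2 lie farthest to the left, and SUPV3L1 and TFB2M farthest to the right.

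The transcription genes split. POLRMT, the mitochondrial RNA polymerase (chromosome 19, 617224 to 633604), had 29.7 and 24.9 CPM in deprived cells, against 94.8 and 93.0 CPM in control cells (log2 fold change -1.78 ± 0.10, edgeR adjusted p = 4.97e-05). TFAM, its DNA-bending partner (chromosome 10, 58385022 to 58399221), had 218 and 204 CPM in deprived cells, against 94.7 and 96.5 CPM in control cells (1.14 ± 0.07, edgeR adjusted p = 7.11e-05). TFB2M, its promoter-opening partner (chromosome 1, 246540560 to 246566324), had 78.2 and 70.0 CPM in deprived cells, against 29.7 and 32.8 CPM in control cells (1.25 ± 0.09, edgeR adjusted p = 0.000124). The polymerase thus fell while both partners rose, and none of the 3 had groups that overlapped. Over all genes tested, both deprived libraries lay below both control libraries in 40.5% and above them in 36.1%. TEFM, the elongation factor, was not called (0.04 ± 0.09). Nor was TFB1M, which is related to TFB2M and methylates the small ribosomal RNA (-0.08 ± 0.12).

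Per transcript length, POLRMT was at 12.3 ± 0.411 TPM in deprived and 51.8 ± 5.22 TPM in control cells (SD, n = 2 each). TFAM was at 69.1 ± 1.74 TPM in deprived and 38.8 ± 2.33 TPM in control cells, and TFB2M at 64.3 ± 1.62 and 34.2 ± 0.588 TPM. In control cells the polymerase thus had the highest of the 3 levels and in deprived cells the lowest. Almost all counts of each gene lay on protein-coding transcripts. For POLRMT they were 96.8% and 97.4% in deprived cells against 98.6% in each control library.

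The promoters of these 3 genes are shown because the genes act in the same step and changed in opposite directions. The sequences are those of RefSeq on GRCh38.p14, 250 bases before to 50 after the start, which was found for 24 of the 27 genes. Capitals mark the motif of the factor NRF1 (GCGC, any base, then TGCGC) and CCGGAAG, of ETS factors such as GABP, searched on both strands.
POLRMT, chr19:633488-633787, minus strand: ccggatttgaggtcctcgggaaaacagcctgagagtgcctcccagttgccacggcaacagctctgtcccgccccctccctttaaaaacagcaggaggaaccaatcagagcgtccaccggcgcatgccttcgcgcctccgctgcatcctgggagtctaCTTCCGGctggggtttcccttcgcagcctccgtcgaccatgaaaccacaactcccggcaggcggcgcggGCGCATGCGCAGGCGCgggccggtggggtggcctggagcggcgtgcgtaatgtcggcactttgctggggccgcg
TFAM, chr10:58385160-58385459, plus strand: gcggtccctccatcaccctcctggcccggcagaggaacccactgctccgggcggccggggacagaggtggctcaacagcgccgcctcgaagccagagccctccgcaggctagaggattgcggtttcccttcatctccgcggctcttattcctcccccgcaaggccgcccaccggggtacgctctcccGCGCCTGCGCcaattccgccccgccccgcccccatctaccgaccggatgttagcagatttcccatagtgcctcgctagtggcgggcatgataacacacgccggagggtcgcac
TFB2M, chr1:246566212-246566511, minus strand: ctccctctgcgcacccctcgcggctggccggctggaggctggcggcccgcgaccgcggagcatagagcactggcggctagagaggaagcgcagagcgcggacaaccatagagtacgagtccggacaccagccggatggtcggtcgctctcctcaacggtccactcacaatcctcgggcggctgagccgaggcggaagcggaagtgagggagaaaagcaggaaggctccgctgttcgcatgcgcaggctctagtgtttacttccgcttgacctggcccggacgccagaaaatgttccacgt
POLRMT held 2 overlapping NRF1 matches from 24 and 18 bases before the start and 1 ETS match, and TFAM held 1 NRF1 match. TFB2M had neither in these letters. The NRF1 letters were in 4 of the 24 genes (POLG2, POLRMT, TFAM and TFB1M) and in 5.78% of all 35116 promoters, and the ETS letters in 10 of the 24 and in 10.3% of all promoters. TGATGNAA, a core of the ATF4 motif, was in 1 of the 24, SSBP1, and in 3.62% of all promoters. A gene counted as matched if any of its promoters matched, while the percentages are of single promoters. Genes with the NRF1 letters were lower (POLRMT), higher (TFAM) or not called (TFB1M and POLG2).

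The MTERF family, which takes its name from a terminator of mitochondrial transcription, also split. MTERF4, which acts in assembly of the mitochondrial ribosome, had 30.6 and 32.8 CPM in deprived cells, against 14.9 and 14.8 CPM in control cells (1.09 ± 0.08, edgeR adjusted p = 0.000152). Its transcripts annotated as processed transcripts had 16.1 CPM in each deprived library, against 6.23 and 6.06 CPM in control cells. Its protein-coding transcripts had 8.47 and 11.9 CPM in deprived cells, against 5.75 and 3.95 CPM in control cells. MTERF2 had 5.16 and 5.90 CPM in deprived cells, against 12.1 CPM in each control library (-1.13 ± 0.14, edgeR adjusted p = 0.000921). MTERF1, the namesake terminator factor, and MTERF3 were not called, at 0.03 ± 0.10 and 0.08 ± 0.09. Exons of SNED1 on the other strand cover 51.0% of the MTERF4 exon bases. SNED1 itself was at 5.96 CPM in deprived and 3.37 CPM in control cells, and reads of the genes cannot be told apart there without strand. TMEM263 covers 11.6% of the MTERF2 exon bases on the other strand, at 79.2 CPM in deprived and 43.3 CPM in control cells.

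Of the 4 replication genes, only TWNK passed the test. TWNK, the helicase Twinkle, had 14.6 and 15.0 CPM in deprived cells, against 7.86 and 7.95 CPM in control cells (0.91 ± 0.11, edgeR adjusted p = 0.000980). POLG, the catalytic subunit of the DNA polymerase, had 12.8 and 8.53 CPM in deprived cells, against 14.1 and 14.5 CPM in control cells. The deprived values were the lower ones but far apart, and POLG was not called (-0.43 ± 0.20, edgeR adjusted p = 0.124). POLG was called lower without deprived replicate 1 (-0.74, edgeR adjusted p = 0.00682), and without deprived replicate 2 it was at -0.15 (edgeR adjusted p = 0.395). The share of POLG counts on protein-coding transcripts varied widely between libraries, 51.8% and 15.2% in deprived and 3.78% and 28.4% in control cells. FANCI on the other strand shares 7.66% of the POLG exon bases, with 85.6 CPM in deprived and 199 CPM in control cells. POLG2, the accessory subunit, was at 7.84 ± 0.312 and 7.60 ± 0.246 CPM (SD, n = 2 each). SSBP1, the single-strand binding protein, was not called by edgeR (0.26 ± 0.10, adjusted p = 0.0689) but passed with DESeq2 (adjusted p = 0.0430), which called 26.2% of all genes higher and 23.1% lower.

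Genes that cut and sort the precursor RNA also moved in both directions. ELAC2, which cuts tRNAs at their 3′ end, had 110 and 102 CPM in deprived cells, against 177 and 166 CPM in control cells (-0.69 ± 0.08, edgeR adjusted p = 0.000622). TRMT10C and HSD17B10 are the subunits of RNase P that methylate tRNA, beside the nuclease PRORP that cuts the 5′ end. HSD17B10 had 152 and 130 CPM in deprived cells, against 73.9 and 80.5 CPM in control cells (0.87 ± 0.10, edgeR adjusted p = 0.000725). TRMT10C was at 59.3 ± 5.74 CPM in deprived and 42.4 ± 2.97 CPM in control cells (SD, n = 2 each; 0.48 ± 0.10, edgeR adjusted p = 0.00768). PRORP, which is in a wider list, was not called at 0.17 ± 0.09. The subunit genes of RNase P thus rose or were not called, and the 3′ nuclease gene fell. With library size as the only scaling, TRMT10C was not called (0.15, edgeR adjusted p = 0.168). GRSF1, an RNA-binding protein of mitochondrial RNA granules, had 191 and 183 CPM in deprived cells, against 118 and 114 CPM in control cells (0.69 ± 0.07).

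Of the 5 genes of mRNA stability and decay, 4 were higher and 0 lower, beside 25.2% and 24.4% of all genes tested. LRPPRC, which holds the polyadenylated mRNAs, had 1108 and 1080 CPM in deprived cells, against 634 and 659 CPM in control cells (0.76 ± 0.08, edgeR adjusted p = 0.000579). Its partner SLIRP was not called, with 21.0 and 15.6 CPM in deprived cells, against 15.8 and 19.0 CPM in control cells. The groups of SLIRP overlapped. MTPAP, the poly(A) polymerase, was at 53.4 ± 1.13 CPM in deprived and 38.4 ± 0.279 CPM in control cells (SD, n = 2 each; 0.48 ± 0.07), a call lost with library size as the only scaling (0.14, edgeR adjusted p = 0.198). SUPV3L1 and PNPT1, helicase and nuclease of the degradosome that removes mitochondrial RNA, both rose. SUPV3L1 had 51.2 and 49.4 CPM in deprived cells, against 18.9 and 21.1 CPM in control cells (1.33 ± 0.08, edgeR adjusted p = 7.50e-05), the largest increase of the 40 genes. PNPT1 had 100.1 and 100.1 CPM in deprived cells, against 63.1 and 64.4 CPM in control cells (0.65 ± 0.06, edgeR adjusted p = 0.000413).

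Most of the SUPV3L1 difference lay on a transcript annotated as retaining an intron. SUPV3L1-203, that transcript, had 29.7 and 27.5 CPM in deprived cells, against 5.02 and 3.89 CPM in control cells. The protein-coding transcript SUPV3L1-201 had 20.5 and 21.3 CPM in deprived cells, against 13.3 and 16.6 CPM in control cells. With protein-coding transcripts alone, SUPV3L1 had a log2 fold change of 0.42 ± 0.14 and was not called (edgeR adjusted p = 0.0559), where 30.3% of all genes so fitted were called higher and 28.6% lower. Retained-intron transcripts of GRSF1 likewise had 53.9 and 56.9 CPM in deprived cells, against 25.0 and 16.2 CPM in control cells. GRSF1 remained called on protein-coding transcripts alone (0.39, edgeR adjusted p = 0.00674). SSBP1 had most of its counts on such transcripts in every library, 85.6% and 79.4% in deprived and 76.6% and 74.1% in control cells. The division of reads between transcripts of a gene is an estimate by a tool that the sources used here do not name, and no test was made on single transcripts.

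**Figure D5:**
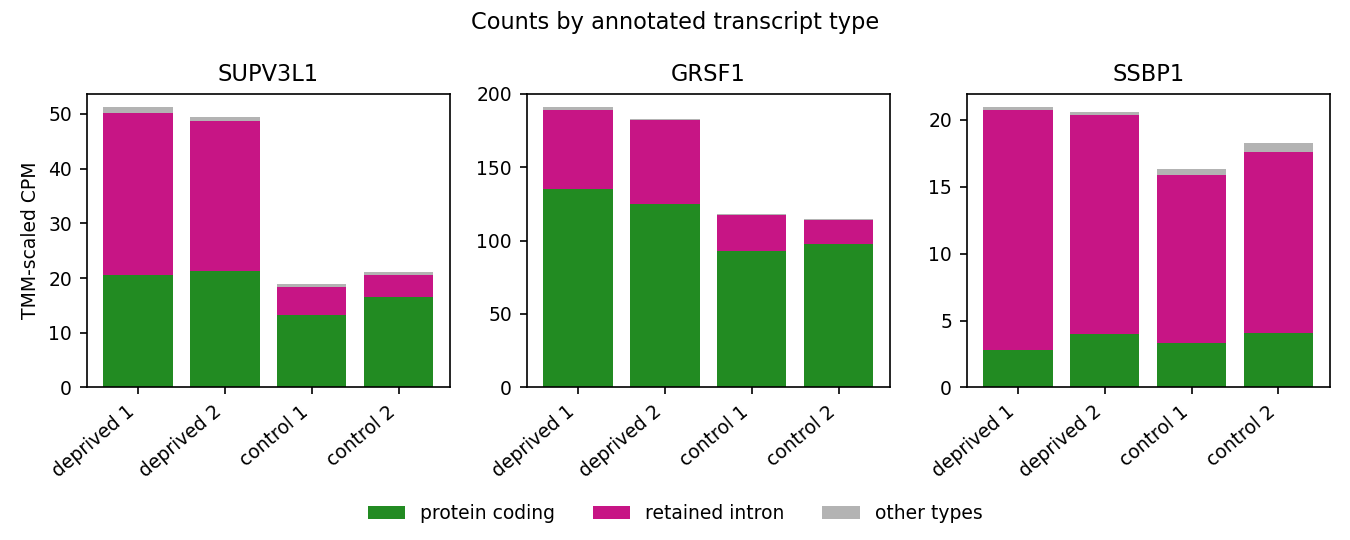
TMM-scaled CPM of SUPV3L1, GRSF1 and SSBP1 in each library, stacked by annotated transcript type. The retained-intron part of SUPV3L1 is 29.7 and 27.5 CPM with deprivation against 5.02 and 3.89 CPM in control cells, while its protein-coding part changes less.

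FASTK family members bind mitochondrial mRNAs and act on their processing and stability. FASTKD2, an RNA granule protein, had 196 and 175 CPM in deprived cells, against 111 and 107 CPM in control cells (0.76 ± 0.08, edgeR adjusted p = 0.000555). FASTKD5, which is needed for cuts not flanked by a tRNA, was at 91.2 ± 6.52 CPM in deprived and 61.3 ± 3.39 CPM in control cells (SD, n = 2 each; 0.57 ± 0.08). FASTKD1 rose by 0.28 ± 0.07 on the log2 scale and FASTKD3 fell by 0.36 ± 0.08, and both had an edgeR adjusted p of 0.0145. On protein-coding transcripts FASTKD3 had 20.9 and 18.5 CPM in deprived cells, against 22.2 and 25.9 CPM in control cells. In the fit to protein-coding transcripts only, 3 instead of 4 nuclear genes were called lower, beside 28.6% of all genes so fitted. With library size as the only scaling FASTKD1 turned to -0.053. Without control replicate 2 the edgeR adjusted p was 0.0993 for FASTKD1 and 0.0986 for FASTKD3. FASTKD1 was also not called without control replicate 1 (edgeR adjusted p = 0.0878), nor FASTKD3 without deprived replicate 2 (edgeR adjusted p = 0.0514). FASTK, the founding member, of which 1 isoform stabilises MT-ND6 mRNA, was not called (-0.09 ± 0.10). Its counts were mostly on retained-intron transcripts, 71.3% and 72.3% in deprived and 71.1% and 79.0% in control cells.

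Other genes of mitochondrial RNA maturation also went both ways. Of 34 genes for tRNA and rRNA maturation and modification, all tested, 16 were higher and 10 lower, beside 25.2% and 24.4% of all genes tested, with a median log2 fold change of 0.21. By smallest p, MRM1, a ribosomal RNA methyltransferase, had 6.04 and 6.63 CPM in deprived cells, against 24.0 and 23.6 CPM in control cells (-1.91 ± 0.11). TRIT1, which modifies tRNA next to the anticodon, rose by 1.29 ± 0.07. PDE12, which removes poly(A) from mitochondrial RNA, had 228 and 216 CPM in deprived cells, against 98.3 and 95.9 CPM in control cells (1.19 ± 0.07). METTL15 and MTO1, which modify ribosomal RNA and tRNA, rose by 1.32 ± 0.08 and 1.47 ± 0.09. TBRG4, also called FASTKD4, was not called (0.19 ± 0.09).

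Of 25 mitochondrial translation factor genes, 10 were higher and 5 lower (median 0.12), beside 25.2% and 24.4% of all genes tested. GFM1, the elongation factor that moves the ribosome, had 270 and 267 CPM in deprived cells, against 125 and 135 CPM in control cells (1.05 ± 0.07). GTPBP10 and MTG2, GTPases of ribosome assembly, rose by 1.06 ± 0.07 and 0.95 ± 0.09, and the release factor gene MTRF1L rose by 0.86 ± 0.08. MTG1, a further assembly GTPase, was lower by 0.70 on the log2 scale. Of 24 tested genes of mitochondrial DNA upkeep and nucleotide supply, out of 25, 9 were higher and 12 lower (median -0.14), beside the same 25.2% and 24.4%. The genes with the smallest p included both directions. DNA2, a nuclease and helicase shared with nuclear replication, had 17.6 and 16.9 CPM in deprived cells, against 61.3 and 64.0 CPM in control cells (-1.86 ± 0.07). RRM2B, the p53-induced small subunit of ribonucleotide reductase, had 348 and 364 CPM in deprived cells, against 94.2 and 104 CPM in control cells (1.85 ± 0.08). DGUOK, a mitochondrial deoxynucleoside kinase, EXOG, a mitochondrial nuclease, and SLC25A36, a pyrimidine nucleotide carrier, rose by 1.58 ± 0.10, 1.40 ± 0.07 and 1.00 ± 0.07.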

How the data were processed

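RNA of A549 cells was purified with poly-T beads per the labels' protocols. The deposited files hold 1 value per transcript and library, which are estimated counts as the values show: in 43.7% of 7456 pairs, a transcript whose exons cover those of another had fewer counts than it. The tool that divided reads among transcripts is not given in the sources used here. HISAT2 2.0.5, featureCounts 1.5.0-p3, DESeq2 1.20.0 and hg38 are named, with no role, per the submitters' processing notes.

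Of 229420 transcripts, 205306 matched GENCODE release 29 and were summed to 58560 genes, holding 98.0% to 98.2% of the counts. Genes passing filterByExpr (24527) were fitted in edgeR 4.0.16 (R 4.3.3) with TMM factors and quasi-likelihood tests, and p-values were Benjamini-Hochberg adjusted. The common biological coefficient of variation was 0.210. CPM were TMM-scaled, TPM used full transcript lengths, and SE is the log2 fold change over the root of F. Alternatives used other scalings and filters, DESeq2 1.42.0, limma-voom 3.58.1, a replicate block, protein-coding transcripts and each library left out. The fit was checked on simulated data with less variation between libraries and far fewer changed genes than these data. That check gives no rate of false calls here. Named genes were all 13 mitochondrial mRNAs and, of the nuclear genes, the 12 with the smallest p plus POLG and TWNK, with the rest summarised or given as values, and the 5 of smallest p in each wider list. Other genes were picked after their values were seen. The members and lists were chosen with earlier results of these data known. A series table of lncRNA transcripts holds no member and was not used.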

Additional observations from a re-analysis of the deposited data

How the results depend on the processing

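All 13 mitochondrial mRNAs were lower under every alternative. With no filter on low counts 11 were called, beside 12.7% of all genes called lower. In every other fit to all 4 libraries 13 were called. All genes called lower were then 20.7% with the replicate block, 23.1% with DESeq2, 28.6% with protein-coding transcripts only and 34.9% with library size only. Some calls were lost in fits that left out 1 library, where the median of the 13 ranged from -1.24 to -0.75. Of the nuclear genes, 11 were called higher with library size only, beside 17% of all genes, and up to 15, with DESeq2, beside 26.2%. With library size as the only scaling, 10 instead of 4 nuclear genes were called lower and their median turned to -0.053. The genes whose log2 fold change turned sign were not called in the first place, apart from FASTKD1 (-0.053 with library size only). With library size only they were TEFM -0.295, MTERF1 -0.309, MTERF3 -0.255, POLG2 -0.289, SSBP1 -0.070 and SLIRP -0.272. With upper-quartile factors they were TEFM -0.066, MTERF1 -0.080, MTERF3 -0.027, POLG2 -0.061 and SLIRP -0.042. With at least 50 counts in at least 2 libraries they were TEFM -0.0072, MTERF1 -0.022 and POLG2 -0.0044. With protein-coding transcripts only they were MTERF1 -0.030, POLG 0.687, POLG2 -0.084 and SSBP1 -0.181. With 1 library left out, ranges across 0 were -0.035 to 0.137 for TEFM, -0.049 to 0.123 for MTERF1, -0.0028 to 0.147 for MTERF3, -0.155 to 0.281 for SLIRP, -0.176 to 0.032 for TFB1M and -0.211 to 0.039 for FASTK. The cause was not tested. MT-ND6 relative to the heavy-strand sum ranged from -1.76 to -1.44 over its alternatives. Deviations of same-numbered libraries had a correlation of -0.023, which gives no sign of pairing. With the number as a replicate block, 13 mitochondrial mRNAs were lower, 13 nuclear genes higher and 4 lower, over all genes 5529 were higher and 5079 lower, and the relative change of MT-ND6 was -1.63. Depth limits MT-RNR1, MT-TF and MT-TV, which were not tested.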

Other observations

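Regulators of mitochondrial biogenesis, from a list of 18 genes of which 17 were tested, were called higher in 12 cases and lower in 2, beside 25.2% and 24.4% of all genes tested, with a median log2 fold change of 0.36. SIRT1, a deacetylase that acts on the coactivator PGC-1alpha, had 75.0 and 79.0 CPM in deprived cells, against 24.0 and 24.4 CPM in control cells (1.67 ± 0.07). GABPB1, a subunit of the factor GABP, had 96.1 and 89.6 CPM in deprived cells, against 28.5 and 31.0 CPM in control cells (1.64 ± 0.08). CREB1, PRKAA2, an AMPK subunit gene, and GABPB2 rose by 1.24 ± 0.07, 1.26 ± 0.08 and 1.32 ± 0.13. PPARGC1B, a coactivator related to PGC-1alpha, was lower at 2.14 and 2.64 CPM in deprived cells, against 5.89 and 4.80 CPM in control cells.

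Mitochondrial proteases and chaperones, 14 genes, were called higher in 7 cases and lower in 5, beside the same 25.2% and 24.4%, with a median of 0.16. LONP1, a matrix protease known to degrade TFAM, had 74.2 and 77.0 CPM in deprived cells, against 32.4 and 29.9 CPM in control cells (1.28 ± 0.08). YME1L1, an inner-membrane protease, had 534 and 515 CPM in deprived cells, against 232 and 229 CPM in control cells (1.19 ± 0.07). DNAJA3 and GRPEL1, partners of the matrix chaperone HSPA9, rose by 1.00 ± 0.07 and 1.07 ± 0.08, and AFG3L2 rose by 0.93 ± 0.09. CLPX, which unfolds substrates of the protease CLPP, was lower at 62.6 and 61.4 CPM in deprived cells, against 89.9 and 88.9 CPM in control cells.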
